A study of Homo sapiens with 30 samples.

Results

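Basal gene expression was compared between breast cancer cell lines with and without estrogen receptor (ER), in cells that had received vehicle alone. The series holds 30 two-colour Agilent whole-genome expression arrays of 5 lines at 6 time points between 30 min and 24 h, on which vehicle-treated cells (Cy3) and cells treated with recombinant BMP7 (Cy5) of the same line and time were hybridized together. All 30 vehicle channels were used. MDA-MB-361, T-47D and ZR-75-30 formed the ER-positive class (18 arrays) and HCC1954 and MDA-MB-231 the ER-negative class (12 arrays). The labels name the lines but not their receptor status, which was taken from common knowledge of these lines and then checked against the transcripts measured here. For each sample the cells of 3 cultures were pooled, and all cells had been seeded on plates and left to adhere before vehicle was added. T-47D and MDA-MB-231 were grown with serum concentrations other than those recommended for them, MDA-MB-231 with less serum than T-47D. Thus 1 line of each class differed in this respect, but not equally. Serum and line cannot be told apart, and an effect of serum was not tested. Each line is a single culture model of 1 tumor, and the vehicle arrays of a line at different times are repeats of that line, not of its class. In such bulk cultures, fewer cells with a transcript and less of it per cell cannot be told apart. The cell line was therefore the unit of comparison, with 3 lines against 2.

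ER alpha, encoded by ESR1, is a nuclear receptor that, once bound by estrogen, acts on chromatin together with the pioneer factor FOXA1 and with GATA3, and drives genes such as PGR, GREB1, TFF1 and CA12. ER-positive breast cancer lines generally resemble luminal epithelium, which carries simple keratins and tight junction proteins. ER-negative lines are more varied. Some keep basal keratins, some carry an amplified ERBB2 gene and others have taken on mesenchymal features such as vimentin in place of E-cadherin.

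Signals are given as log2 of the processed vehicle signal with the median of each array set to 0, averaged over the 6 arrays of a line, with the SD over those arrays. Levels are read within a probe and not between genes. Per array, 55.5% to 69.8% of probes were well above background, and each of the 30 arrays correlated best with the other arrays of its own line. The lowest mean correlation with its own line, 0.935, was that of MDA-MB-231 at 6 h. Over 19362 probes the line means correlated at 0.896 to 0.915 among ER-positive lines, at 0.901 between the ER-negative lines and at 0.833 to 0.913 between classes. The highest of the correlations between classes was that of ZR-75-30 with HCC1954, which was as high as those within a class. The lines lay mostly on slides of their own (1 of 13 slides held more than 1 line), so line and slide cannot be told apart for most arrays.

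ESR1 separated the classes. Among the ER-positive lines its signal was highest in MDA-MB-361 (4.26 ± 0.36), followed by T-47D (3.72 ± 0.60) and ZR-75-30 (2.60 ± 0.46), against -0.56 ± 0.21 in HCC1954 and -4.26 ± 0.53 in MDA-MB-231 (SD, n = 6 arrays each). The 18 ER-positive arrays ran from 1.88 over a median of 3.73 to 4.62, and the 12 ER-negative arrays from -4.79 over -2.04 to -0.23, without overlap. On HCC1954 arrays the ESR1 probe was nevertheless well above background on 6 of 6 arrays, and on MDA-MB-231 arrays on 0 of 6. The probe lies on chromosome 6 at 152465601 to 152465660 (hg18), and the second ESR1 probe that passed the filter showed the same order with a difference of 1.25 in place of 5.94. With limma on the line means, the ESR1 difference of 5.94 (SE 1.15) did not pass the threshold after adjustment over all probes (adjusted p = 0.132). PGR, the progesterone receptor and a classical ER target, did not follow the class. It was 4.56 ± 0.53 in T-47D and -0.57 ± 0.85 in MDA-MB-361, but -3.96 ± 0.34 in ZR-75-30, where 0 of 6 arrays were well above background, as in both ER-negative lines.

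**Figure D1:**
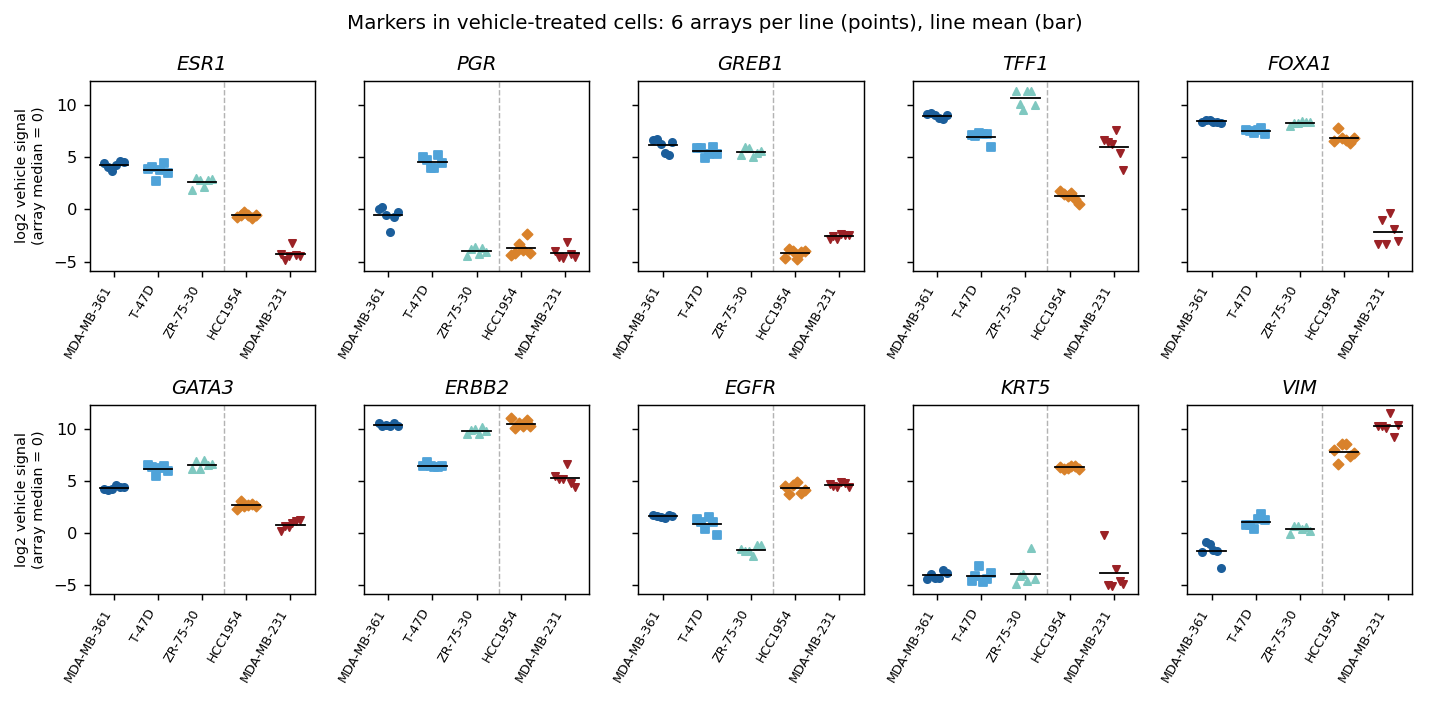
Vehicle signal of 10 markers (log2, median of each array set to 0) on every array, with 6 points per cell line and the line mean as a bar. ER-positive lines stand left of the dashed line and ER-negative lines right of it. ESR1, GREB1 and GATA3 are higher in every ER-positive array than in every ER-negative array, arrays of TFF1 and FOXA1 each overlap with those of 1 ER-negative line, PGR is highest in T-47D, KRT5 is high in HCC1954 alone, and ERBB2 is high in MDA-MB-361, ZR-75-30 and HCC1954.

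Of 13640 genes tested, 1551 (11.4%) had a higher signal in every ER-positive line than in either ER-negative line, with the probe well above background in all 3 ER-positive lines. In the other direction, 2684 (19.7%) were higher in both ER-negative lines. A gap of at least 1 on the log2 scale (2-fold) between the nearest lines of the classes was left for 376 genes (2.76%) and 519 genes (3.80%). Just inside this limit lay CACNG4 and NRN1L, higher in ER-positive lines with a gap of 1, and just outside it RAD18 and CEP85, higher in ER-negative lines with gaps of 0.996 and 0.995. Since the genes were selected for this order, these counts describe the 5 lines. An exact permutation test of 3 lines against 2 cannot give a two-sided p below 0.2 for any gene.

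The number of separated genes that leaned to either class depended on how arrays were scaled. With the array median at 0, the median difference over all genes tested was -0.14 (ER-positive minus ER-negative) and 36.6% of separated genes were higher in ER-positive lines. Centring on the 75th percentile moved that median by 0.19 and the share to 52.1%, and quantile normalization moved them by 0.16 and to 50.2%. Among genes with a gap of at least 1 the share was 42%, 53.7% and 50.2% in the same order. With normexp background correction the shares were 36.3% of separated genes and 39.9% of those with a gap of at least 1. The differences below are to be read against the median of -0.14, and the larger number of separated genes in ER-negative lines was not seen with the other 2 scalings.

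With limma on the line means, 25 genes (0.183%) passed an adjusted p of 0.05 with every ER-positive line higher, and 58 genes (0.425%) with both ER-negative lines higher. Both sets are outlined in the plot of the class means. These calls describe the same line means that ordered the lines and are not a separate test of the order. In 20 of the 25 and 39 of the 58 genes no line of the lower class had the probe well above background on at least 4 arrays, so that the gene passed the filter through the higher class alone and had to differ. For them the p-value sets signal against background, and a difference is not a measured ratio. In the other 5 and 19 genes at least 1 line of the lower class was measured, and in 3 and 9, TGFB3, VIM, LAMB3, PLAU and SPRY2 among them, every line was. An unadjusted p under 0.05 was reached by 730 (5.35%) and 954 (6.99%) of all genes. The median SD over the arrays of a line was 0.31, and the median SD between the ER-positive lines was 0.61. When MDA-MB-361, T-47D, ZR-75-30 or MDA-MB-231 was left out in turn, limma called 0 genes in either direction, although 515 to 713 genes higher in ER-positive lines and 539 to 1006 higher in ER-negative lines had an unadjusted p under 0.05. Without HCC1954 it called 64 and 10, with 945 and 778 at an unadjusted p under 0.05. With normexp background correction 1 and 20 genes were called and without the filter on dim probes 6 and 22. Within the first scan batch 22 and 52 were called and within the second, which held 4 of the lines with 1 or 2 arrays each, 0 and 0 (415 and 745 at an unadjusted p under 0.05). No other tool was run.

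**Figure D2:**
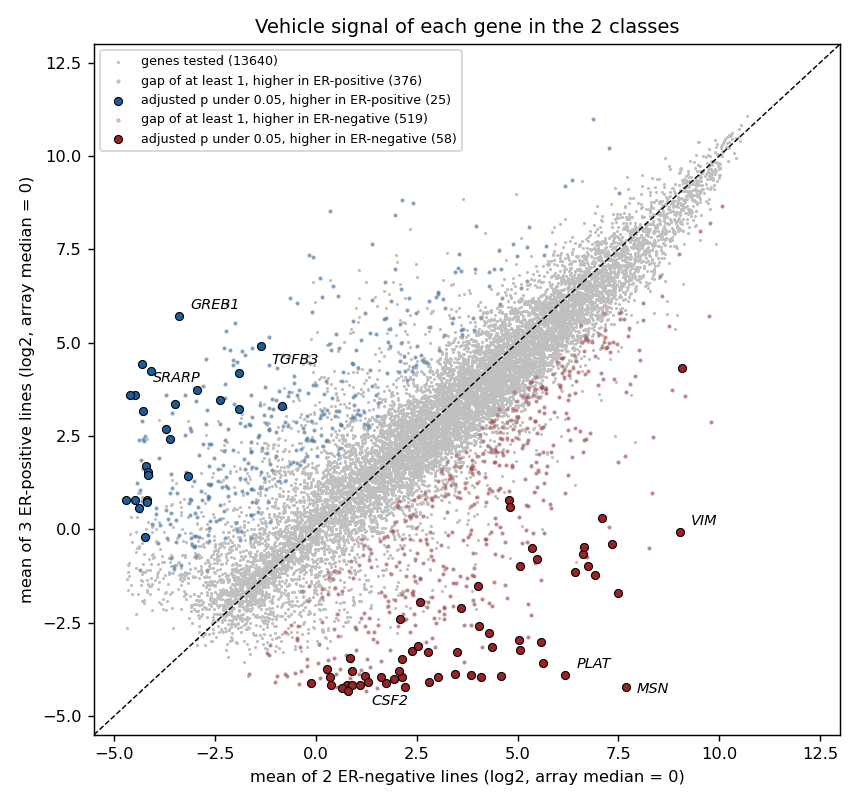
Mean vehicle signal of the 3 ER-positive lines (vertical) against that of the 2 ER-negative lines (horizontal) for 13640 genes, both as log2 with the array median at 0. Grey points are all genes tested, pale colours the 376 and 519 genes with a gap of at least 1 between classes, and outlined points the 25 and 58 genes past the adjusted limma p, which lie far from the dashed line of equal signal, many of them near the lowest signals of one class.

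Among the genes called higher in ER-positive lines, GREB1 came first by gap, in an order that rests in part on ER-negative signals at background. GREB1 is an early estrogen-induced gene and a cofactor of the receptor. Its signal in MDA-MB-361 was 6.11 ± 0.67, followed by 5.55 ± 0.44 (T-47D) and 5.49 ± 0.38 (ZR-75-30), against -4.18 ± 0.38 in HCC1954 and -2.59 ± 0.22 in MDA-MB-231. The lowest of the 18 ER-positive arrays was 4.94 and the highest of the 12 ER-negative arrays -2.36. Of those 12 arrays, 1 was well above background. The difference from these mostly background signals was 9.10 (SE 0.63, limma adjusted p = 0.0168). The GREB1 probe lies on chromosome 2 at 11700131 to 11700190 (hg18), and a second GREB1 probe gave the same order with a smaller difference of 2.38 (adjusted p = 0.219).

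SRARP, a gene named for its association with steroid receptors, was 5.92 ± 0.22, 3.56 ± 0.31 and 3.77 ± 0.33 in the ER-positive lines, in the order above, and was not well above background on any ER-negative array. It was thus at least 110-fold higher in ER-positive lines (adjusted p = 0.0249), where the bound sets the ER-positive mean against the lowest signal well above background on each ER-negative array. By the same reckoning LONRF2, which encodes a RING finger protein with a LON protease domain, was at least 96.1-fold higher, KCNMA1, the pore subunit of a calcium-activated potassium channel, at least 62.6-fold, AMZ1, a metallopeptidase, at least 62.1-fold, and CA8, a carbonic anhydrase-related protein, at least 32.9-fold. PDZRN3, a ubiquitin ligase, and DCDC2, a microtubule-binding protein, were dimmer genes with nearly equal levels in the ER-positive lines. PDZRN3 was 0.66 ± 0.19, 0.95 ± 0.45 and 0.79 ± 0.27 and at least 8.92-fold higher than in ER-negative lines. DCDC2 was 0.60 ± 0.11, 0.90 ± 0.48 and 0.83 ± 0.26 and at least 8.79-fold higher. All of these limma adjusted p-values lay between 0.0208 and 0.0339 and set signal against background. The bounds hold for the brightest probe of each gene. Other KCNMA1 probes that passed the filter differed by 4.25 (adjusted p = 0.0474) and by 0.76 (adjusted p = 0.613). The second SRARP probe differed by 4.58 (adjusted p = 0.114).

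Regulators and a secreted ligand also belonged to this set. CBFA2T3, a transcriptional corepressor, differed by 6.70 (SE 0.52, limma adjusted p = 0.0207), with 1 of the 12 ER-negative arrays well above background. GSC, a homeobox factor of the embryonic organizer, differed by 6.86 (SE 0.71, limma adjusted p = 0.0319), with 2 of the 12 above it. For both, and for HS6ST3 below, the p-value set signal against background. TGFB3, a ligand of the TGF-beta family to which BMP7 also belongs, was 5.47 ± 0.13, 5.66 ± 0.30 and 3.60 ± 0.31 in the ER-positive lines and -1.58 ± 0.27 and -1.16 ± 0.22 in HCC1954 and MDA-MB-231. Its difference was 6.28 (SE 0.74, limma adjusted p = 0.0398), and 5 of 6 arrays of each ER-negative line were well above background. The second TGFB3 probe differed by 5.41 (limma adjusted p = 0.0503) and was not called. HS6ST3, a heparan sulfate sulfotransferase, varied more within the class, with 4.68 ± 0.25 in MDA-MB-361 and 1.52 ± 0.50 in T-47D (adjusted p = 0.0474).

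**Figure D3:**
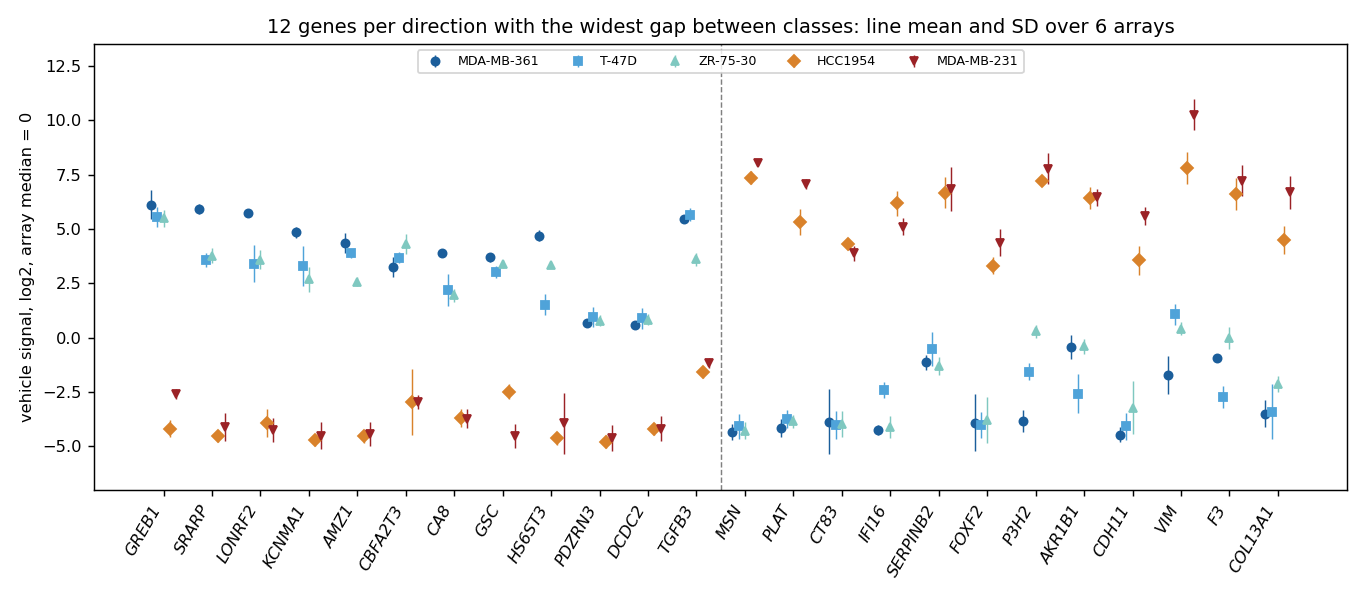
Line mean and SD over 6 arrays of the vehicle signal (log2, array median at 0) for the 12 genes per direction with the widest gap between classes among those called by limma. Left of the dashed line the 3 ER-positive lines lie above both ER-negative lines, from GREB1 with a gap of 8.07 to TGFB3 with 4.76. Right of it the order is turned, from MSN with a gap of 11.4 to COL13A1 with 6.61.

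In the other direction MSN came first by gap. Moesin, its product, links the plasma membrane to cortical actin. MSN was 7.36 ± 0.29 in HCC1954 and 8.03 ± 0.11 in MDA-MB-231 (5 arrays, since 1 spot was marked as an outlier) and was not well above background on any of the 18 ER-positive arrays, which ran from -4.90 to -3.15. It was at least 843-fold higher in ER-negative lines. MSN passed the filter through the ER-negative lines alone and had to differ, so its limma adjusted p of 0.00586 set signal against background. The other 3 MSN probes that passed the filter separated the classes in the same direction, with differences of -9.82, -4.75 and -4.65. The probe lies on chromosome X at 64878326 to 64878385 (hg18).

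PLAT, tissue plasminogen activator, was 5.32 ± 0.60 in HCC1954 and 7.05 ± 0.24 in MDA-MB-231, at least 296-fold above the ER-positive lines (adjusted p = 0.0138). IFI16, an interferon-inducible sensor of DNA, was at least 202-fold higher (adjusted p = 0.0208). CT83, a cancer/testis antigen on chromosome X, was 4.31 ± 0.28 and 3.88 ± 0.35 in the ER-negative lines and well above background on 1 of the 18 ER-positive arrays (adjusted p = 0.0132). FOXF2, a forkhead factor of mesenchyme, was 3.32 ± 0.37 and 4.36 ± 0.62, with 2 of 18 ER-positive arrays above background (limma adjusted p = 0.0164). PLAT, IFI16, CT83 and FOXF2 all passed the filter through the ER-negative lines alone, so their p-values set signal against background.

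VIM, the intermediate filament of mesenchymal cells, was graded. It was 10.25 ± 0.71 in MDA-MB-231, 7.78 ± 0.73 in HCC1954, 1.07 ± 0.50 in T-47D, 0.40 ± 0.30 in ZR-75-30 and -1.72 ± 0.88 in MDA-MB-361, a difference of -9.10 (SE 1.09, adjusted p = 0.0414). MDA-MB-231 thus exceeded HCC1954 by more than either SD. A second VIM probe differed by -9.22 (limma adjusted p = 0.0575) and was not called. CDH11, a mesenchymal cadherin, showed the same order of the ER-negative lines, with 5.60 ± 0.41 and 3.56 ± 0.66, as did COL13A1, a transmembrane collagen, with 6.69 ± 0.76 and 4.47 ± 0.64. Of the 18 ER-positive arrays, 2 were well above background for CDH11 and 3 for COL13A1. SERPINB2, an inhibitor of plasminogen activators, was 6.67 ± 0.71 in HCC1954 and 6.82 ± 1.01 in MDA-MB-231, and F3, tissue factor, 6.62 ± 0.73 and 7.22 ± 0.71, in each case within the SD of one another. AKR1B1, aldose reductase, was also alike in both lines, at 6.41 ± 0.52 and 6.45 ± 0.40, while P3H2, a collagen prolyl hydroxylase, was 7.21 ± 0.24 and 7.76 ± 0.71 and ranged from -3.83 to 0.29 in the ER-positive lines (adjusted p = 0.0474). Without MDA-MB-231 at 6 h and T-47D at 3 h and 24 h the limma adjusted p was 0.0572 for VIM, 0.0533 for AKR1B1 and 0.0637 for P3H2. The same setting gave 0.0563 for TGFB3 and 0.0533 for HS6ST3, named above, and 0.0533 for CAV2, named below. These genes thus lost their call there.

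Promoters of 4 called genes are shown to set the expression difference beside a short motif found upstream of the gene. Genes and motifs were chosen after the expression values were known. In the RefSeq promoter table (GRCh38.p14, 250 bases before to 50 after each start site, 35116 promoters), both strands were searched for the AP-1 site TGACTCA, bound by FOSL1 and its partners, for the E-box CAGGTG, which SNAI and ZEB repressors recognize, for the forkhead site TGTTTAC, the GATA site AGATAAG and the full estrogen response element GGTCANNNTGACC. No motif contains another. Of all promoters, 4.95%, 20.6%, 3.42%, 2.68% and 0.057% held them in that order. A promoter was found for 10897 of the genes tested, for 278 of the 376 and 416 of the 519 genes with a gap of at least 1, and for 20 of the 24 genes with the widest gaps.

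The AP-1 site was present for 10.3% of genes higher in ER-negative lines (43 of 416), 5.4% of those higher in ER-positive lines (15 of 278) and 5% of all genes tested. The E-box was present for 24%, 33.1% and 24.3%. The GATA site was present for 3.37%, 4.68% and 2.29% and the forkhead site for 4.33%, 2.88% and 3.48%. The full estrogen response element was found for 0 genes of either set, which says only that these letters are not in these windows. In the sequences below, read 5′ to 3′ on the strand of the gene, capitals mark the AP-1 site in F3 and LAMB3, higher in ER-negative lines, and the E-box in AMZ1 and CBFA2T3, higher in ER-positive lines. Counted from the start site, the AP-1 site lay at -210 to -204 in F3 and at -67 to -61 in LAMB3, and the E-box at -219 to -214 in AMZ1 and at -73 to -68 in CBFA2T3. A match of letters is a description and no evidence of binding.
F3, chr1:94541710-94542009, minus strand: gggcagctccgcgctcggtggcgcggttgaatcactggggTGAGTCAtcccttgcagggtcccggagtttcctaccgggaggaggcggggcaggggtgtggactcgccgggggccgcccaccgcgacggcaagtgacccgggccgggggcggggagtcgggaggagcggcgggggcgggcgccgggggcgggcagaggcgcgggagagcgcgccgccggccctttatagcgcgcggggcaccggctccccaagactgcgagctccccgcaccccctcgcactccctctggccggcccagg
LAMB3, chr1:209651325-209651624, minus strand: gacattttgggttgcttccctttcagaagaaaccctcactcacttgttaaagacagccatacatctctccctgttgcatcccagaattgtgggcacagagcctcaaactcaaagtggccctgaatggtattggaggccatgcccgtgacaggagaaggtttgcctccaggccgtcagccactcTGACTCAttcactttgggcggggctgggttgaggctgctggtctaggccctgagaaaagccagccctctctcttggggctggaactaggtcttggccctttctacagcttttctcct
AMZ1, chr7:2687952-2688251, plus strand: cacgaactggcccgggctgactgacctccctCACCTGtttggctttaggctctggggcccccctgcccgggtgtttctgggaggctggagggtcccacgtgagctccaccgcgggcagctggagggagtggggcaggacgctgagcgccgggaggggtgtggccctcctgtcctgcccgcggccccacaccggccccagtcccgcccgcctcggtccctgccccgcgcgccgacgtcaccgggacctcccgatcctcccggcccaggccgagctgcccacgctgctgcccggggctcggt
CBFA2T3, chr16:88941301-88941600, minus strand: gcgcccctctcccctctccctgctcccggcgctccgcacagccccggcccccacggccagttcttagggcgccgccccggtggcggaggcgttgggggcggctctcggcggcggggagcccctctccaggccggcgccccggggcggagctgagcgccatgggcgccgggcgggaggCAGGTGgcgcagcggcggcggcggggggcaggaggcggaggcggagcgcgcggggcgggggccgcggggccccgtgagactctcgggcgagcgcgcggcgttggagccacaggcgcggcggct

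The gene lists below and their members were chosen with earlier results of these data known. A share of a list beyond that of all genes is therefore a description and no test. Transcription factors of luminal cells were the first gene list examined. Of 18 tested, 7 were higher in every ER-positive line, among them ESR1, FOXA1, GATA3, XBP1, SPDEF and MYB, and 0 in both ER-negative lines, against 11.4% and 19.7% of all genes. The median difference of the list was 3.07, compared with -0.14 over all genes. None passed the adjusted limma threshold, and 5 had an unadjusted p under 0.05, each higher in ER-positive lines. Of all genes tested, limma called 0.183% higher in ER-positive and 0.425% higher in ER-negative lines. An unadjusted p under 0.05 was reached by 5.35% and 6.99% of them. XBP1, a factor of the unfolded protein response, was 10.65 ± 0.11, 10.04 ± 0.22 and 9.92 ± 0.27 in ER-positive lines against 7.92 ± 0.30 and 6.63 ± 0.51 (difference 2.93, SE 0.58, adjusted p = 0.141). GATA3 was 4.33 ± 0.16, 6.15 ± 0.38 and 6.54 ± 0.37 against 2.67 ± 0.27 and 0.81 ± 0.42. FOXA1 separated the classes by little. It was 6.83 ± 0.49 in HCC1954, next to 7.49 ± 0.22 in T-47D, and -2.15 ± 1.27 in MDA-MB-231. TFAP2B, an AP-2 factor, was 8.81 ± 0.13 in MDA-MB-361 and 2.79 ± 0.15 in T-47D, but not above background on any ZR-75-30 array.

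Of 29 genes listed as estrogen targets, 11 (37.9%) were higher in every ER-positive line, against 11.4% of all genes. In both ER-negative lines 2 (6.9%), MYC and RAB31, were higher, against 19.7% of all genes. With a gap of at least 1 there were 7 and 1, against 2.76% and 3.80% of all genes. The median difference of the list was 1.51. GREB1 was the only member called by limma, and 9 and 1 had an unadjusted p under 0.05. TFF3, a secreted trefoil peptide, was 9.83 ± 0.12, 9.07 ± 0.43 and 6.65 ± 0.48 in MDA-MB-361, T-47D and ZR-75-30 against -1.30 ± 0.59 and 2.0 ± 0.35 in HCC1954 and MDA-MB-231 (difference 8.17, SE 1.30, adjusted p = 0.0838). CA12, a membrane carbonic anhydrase, differed by 7.51 (SE 1.16, adjusted p = 0.0778) and ABAT, which breaks down GABA, by 6.06 (SE 0.96, adjusted p = 0.0838). TFF1, the prototype of estrogen-induced genes, was 6.01 ± 1.32 in MDA-MB-231, within its SD of T-47D at 6.95 ± 0.51, and 1.28 ± 0.45 in HCC1954. CXCL12, a chemokine, was 7.07 ± 0.28 in T-47D but 1.06 ± 0.84 (MDA-MB-361) and 2.18 ± 0.36 in ZR-75-30. MYC was 7.63 ± 0.63 and 7.28 ± 0.78 in the ER-negative lines and 3.26 ± 1.38 to 6.25 ± 0.52 in the ER-positive ones (adjusted p = 0.396).

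Among 30 luminal epithelial genes, 13 (43.3%) were higher in every ER-positive line and 0 in both ER-negative lines, against 11.4% and 19.7% of all genes. The median difference of the list was 2.73. None passed the adjusted limma threshold and 11 had an unadjusted p under 0.05, all higher in ER-positive lines. AGR2, a disulfide isomerase of secretory epithelia, was 7.06 ± 0.14, 8.38 ± 0.16 and 7.52 ± 0.20 against 3.84 ± 0.85 in HCC1954 and -1.07 ± 1.29 in MDA-MB-231. DNALI1, a dynein light intermediate chain, differed by 7.54 (SE 1.40, adjusted p = 0.123) and the tight junction gene CLDN3 by 4.73 (SE 0.81, adjusted p = 0.103). KRT19 was lowest in HCC1954, at 4.72 ± 0.64, compared with 9.02 ± 0.57 in MDA-MB-231 and 10.71 to 11.28 in the ER-positive lines. CDH1, E-cadherin, did not split by class. It was 8.39 ± 0.31 in HCC1954, between T-47D and ZR-75-30, and 1.54 ± 0.53 in MDA-MB-231.

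Basal epithelial genes were the counterpart. Of 25 tested, 11 (44%) were higher in both ER-negative lines and 0 in every ER-positive line, against 19.7% and 11.4% of all genes. The median difference of the list was -2.89, and limma called CAV2 and LAMB3. CAV2, a coat protein of caveolae, was 7.05 ± 0.49 and 6.2 ± 0.21 in HCC1954 and MDA-MB-231 and at most 0.18 ± 0.14 in an ER-positive line (difference -7.28, SE 0.82, adjusted p = 0.036). CAV1, its partner, differed by -8.76 but with 2.19 ± 0.82 in ZR-75-30 against -1.84 ± 0.17 in MDA-MB-361 (adjusted p = 0.0758). LAMB3, a laminin chain of the epithelial basement membrane, was 9.03 ± 0.22 and 9.12 ± 0.95 against 3.73 ± 0.13 to 4.62 ± 0.40 (difference -4.76, SE 0.51, adjusted p = 0.0319). The basal keratins stood apart from this pattern. KRT5 was 6.29 ± 0.16 in HCC1954, while in MDA-MB-231 and ZR-75-30 1 of 6 arrays each was well above background and in MDA-MB-361 and T-47D none, so that it did not pass the filter. KRT17 was 8.03 ± 0.44 in HCC1954 and -2.25 ± 1.13 in MDA-MB-231. KRT5 and KRT17 thus marked 1 ER-negative line, not the class. KRT14 was well above background on all 12 ER-negative and 18 ER-positive arrays. Its signal ran from 0.21 to 3.98 in the ER-negative and from -0.28 to 3.63 in the ER-positive arrays (difference -1.56, limma adjusted p = 0.575).

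Of 21 mesenchymal genes tested, 12 (57.1%) were higher in both ER-negative lines, against 19.7% of all genes. In every ER-positive line 1 (4.76%, against 11.4% of all genes), the transcription factor TWIST1, was higher (1.77 ± 0.11, 1.79 ± 0.44 and -0.09 ± 0.17 against -0.89 ± 0.40 and -1.28 ± 0.42, limma adjusted p = 0.329). The median difference of the list was -3.47, and limma called MSN and VIM. CCN1, a matricellular protein, was 9.25 ± 0.57 and 10.26 ± 0.68 in the ER-negative lines and 5.30 ± 0.49 to 5.97 ± 0.68 in the ER-positive ones (adjusted p = 0.0541). CD44, the hyaluronan receptor, was alike in both ER-negative lines (8.75 ± 0.43 and 8.91 ± 0.84) and differed by -5.10 (SE 0.82, adjusted p = 0.0847). AXL, a receptor kinase, was 9.15 ± 0.48 in MDA-MB-231 and 1.72 ± 1.05 in HCC1954, so the distance within the class was larger than that from HCC1954 to the ER-positive lines, whose highest mean was -0.62.

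Genes of extracellular proteolysis followed the same direction. Of 14 tested, 8 (57.1%) were higher in both ER-negative lines and 0 in every ER-positive line, against 19.7% and 11.4% of all genes. The median difference of the list was -1.73. Limma called PLAT, PLAU and MMP1. PLAU, urokinase, was 6.83 ± 0.35 and 7.38 ± 0.33 against -0.85 ± 0.21 to 1.04 ± 0.45 (difference -6.79, SE 0.70, adjusted p = 0.0319), and its receptor PLAUR was 5.99 ± 0.38 and 4.68 ± 0.36 against -4.30 ± 0.36 to -0.13 ± 0.30 (adjusted p = 0.0847). MMP1, interstitial collagenase, was not well above background on any ER-positive array and was at least 27.8-fold higher in ER-negative lines (limma adjusted p = 0.0236). For PLAT and MMP1 the p-value set signal against background.

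Among 22 genes of epidermal growth factor receptor and ERK signaling, 13 (59.1%) were higher in both ER-negative lines, against 19.7% of all genes. In every ER-positive line 2 (9.09%, against 11.4% of all genes), ERBB3 and ERBB4, were higher. The median difference of the list was -2.11. EGFR was 4.28 ± 0.47 and 4.61 ± 0.20 in HCC1954 and MDA-MB-231 against 1.62 ± 0.13, 0.87 ± 0.63 and -1.58 ± 0.42 (difference -4.14, SE 0.98, adjusted p = 0.20). Of its relatives, ERBB3 and ERBB4 ran the other way, while ERBB2 did not separate the classes. ERBB3 was 3.58 ± 0.14, 3.32 ± 0.21 and 4.06 ± 0.24 in the ER-positive lines against 1.63 ± 0.19 and -2.03 ± 0.80 (adjusted p = 0.262), and ERBB4 was at least 12.2-fold higher, being not well above background on any ER-negative array (adjusted p = 0.198). SPRY2, an ERK-induced inhibitor of receptor signaling, was the member called by limma (difference -4.22, SE 0.47, adjusted p = 0.0345). DUSP6, an ERK phosphatase, was 6.34 ± 0.33 and 6.50 ± 0.22 against 1.63 ± 0.96 to 3.50 ± 0.20 (adjusted p = 0.114). FOSL1, a subunit of the AP-1 factor, was 3.76 ± 0.51 and 4.84 ± 0.58 against -3.29 ± 1.72 to 0.08 ± 0.60 (adjusted p = 0.103).

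Of 18 inflammatory genes tested, 11 (61.1%) were higher in both ER-negative lines and 0 in every ER-positive line, against 19.7% and 11.4% of all genes. The median difference of the list was -3.83. CSF2, the cytokine GM-CSF, was at least 13.6-fold higher (limma adjusted p = 0.0207) and IL24 at least 6.41-fold higher (limma adjusted p = 0.0319). Neither had signal well above background on any ER-positive array, so both p-values set signal against background. CSF2 varied widely within HCC1954, with an SD of 1.73 and a value of -1.42 at 1 h against 1.73 to 3.27 on the other arrays. TNFAIP3, an NF-kappaB target that limits the pathway, differed by -4.63 (SE 0.69, adjusted p = 0.074) and IL6 by -4.62 (SE 1.12, adjusted p = 0.209).

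The pathway of the ligand used in the study differed gene by gene. Of 29 BMP pathway genes tested, 6 were higher in every ER-positive line and 8 in both ER-negative lines, with a median difference of -0.06, and limma called none (5 and 4 had an unadjusted p under 0.05). That was 20.7% and 27.6% of the list, against 11.4% and 19.7% of all genes tested. Of the ID genes, direct BMP targets, ID1, ID2 and ID3 had a higher signal in every ER-positive line without added ligand, although none passed the threshold, while ID4 did not separate the classes. ID3 was 4.66 ± 0.15, 4.85 ± 0.23 and 5.24 ± 0.48 against 2.59 ± 0.75 and 2.40 ± 0.79 (difference 2.42, SE 0.46, limma adjusted p = 0.129). ID2 differed by 3.93 (limma adjusted p = 0.254) and ID1 by 1.69 (limma adjusted p = 0.436). Single arrays of the classes overlapped for ID1 (ER-negative up to 8.94, ER-positive from 7.78) and ID2 (up to 4.68 and from 3.07), but not for ID3. BAMBI, a decoy receptor, was at least 8.15 ± 0.45 in each ER-positive line against 7.35 ± 0.19 and 5.86 ± 0.68, and the antagonist CHRD, chordin, 0.96 ± 0.18 to 3.51 ± 0.29 against -0.34 ± 0.37 and -0.10 ± 0.45. The antagonists NOG, noggin, and FST, follistatin, had the opposite order. NOG was at least 6.68-fold higher in ER-negative lines (adjusted p = 0.188), and FST was 5.05 ± 0.78 and 5.48 ± 0.53 against -4.44 ± 0.36, -3.68 ± 0.88 and, in ZR-75-30, 2.12 ± 0.27 (adjusted p = 0.242). BMP7 itself did not follow the class. It was 9.06 ± 0.29 in ZR-75-30, 6.19 ± 0.69 in HCC1954, 4.20 ± 0.27 in MDA-MB-361 and 2.49 ± 0.46 in T-47D, and was not above background on any MDA-MB-231 array.

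Genes of the ERBB2 amplicon cut across the classes. Of 12 tested, MED1 alone (8.33%) was higher in every ER-positive line (gap 0.25) and 0 in both ER-negative lines, against 11.4% and 19.7% of all genes. The median difference of the list was 0.07, and limma called none (0 at an unadjusted p under 0.05). ERBB2 was 10.47 ± 0.39 in HCC1954, 10.37 ± 0.15 in MDA-MB-361 and 9.79 ± 0.24 in ZR-75-30, against 6.46 ± 0.18 in T-47D and 5.28 ± 0.76 in MDA-MB-231. Its neighbour GRB7, an adaptor protein, was highest in HCC1954 (7.86 ± 0.32) and lowest in MDA-MB-231 (-0.75 ± 0.85). A contrast by ER status in these lines therefore sets 2 of 3 lines with high ERBB2 against 1 of 2.

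Of 26 proliferation genes, 10 were higher in both ER-negative lines and 0 in every ER-positive line, with a median difference of -0.54. The 10 were 38.5% of the list, against 19.7% of all genes tested and 35.7% of the housekeeping genes. Limma called none, and 4 had an unadjusted p under 0.05. CDC20, a mitotic activator, had the widest gap of the list (5.90 ± 0.15 and 6.32 ± 0.47 against 3.30 ± 0.29 to 4.67 ± 0.32, adjusted p = 0.321). With quantile normalization 6 of the 26 were separated, while over all genes 1999 were higher in both ER-negative lines in place of 2684. Of 14 housekeeping genes, 2 were higher in every ER-positive line (14.3%, against 11.4% of all genes), ACTB being one of them. In both ER-negative lines 5 were higher, namely B2M, HPRT1, PGK1, TBP and YWHAZ. All gaps were under 1. The median difference was -0.25 and limma called none (0 at an unadjusted p under 0.05). Of 13 markers of stroma and blood, 5 passed the filter. COL1A2, DCN and PTPRC were above background on 0 arrays, whereas CD3E and CD14 were above it on all 18 ER-positive and 12 ER-negative arrays, COL1A1 on 16 and 7, VWF on 12 and 8 and PECAM1 on 0 and 9. CD68, a lysosomal protein of macrophages, was the 1 member separated by class (1.61 ± 0.20 and 3.58 ± 0.24 in ER-negative lines, limma adjusted p = 0.194). An unadjusted p under 0.05 was reached by 1 member. The 1 separated member of 5 (20%) lay near the 19.7% of all genes.

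**Figure D4:**
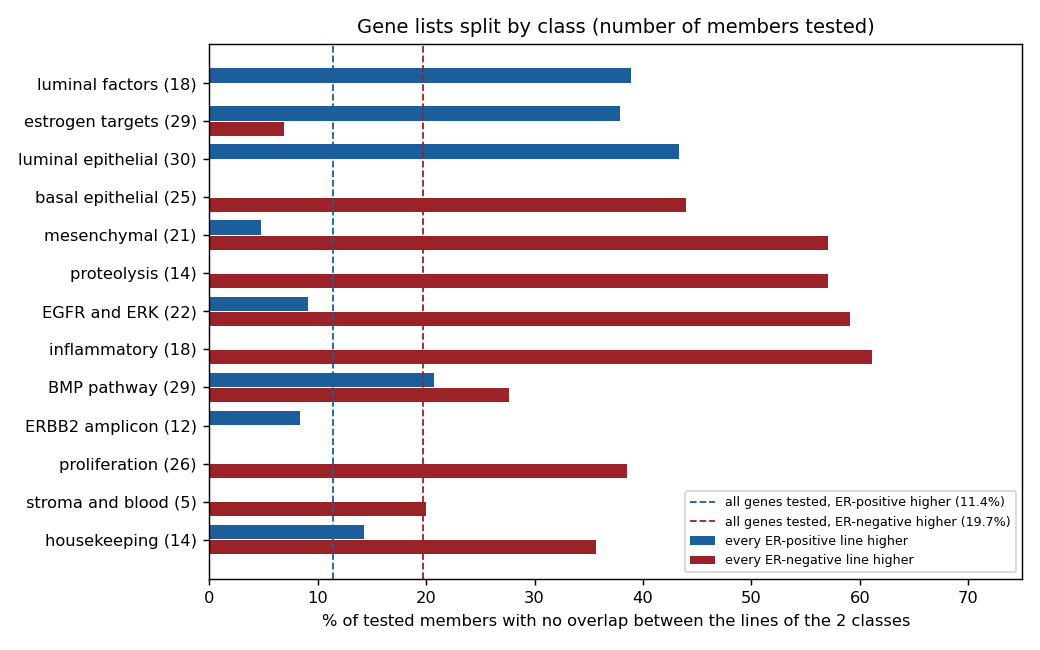
Percentage of the tested members of 13 gene lists that were higher in every ER-positive line (blue) or in both ER-negative lines (red), with the number of members tested in brackets. Dashed lines mark the shares over all 13640 genes, 11.4% and 19.7%. Members and lists were chosen with earlier results of these data known, so a share beyond a line is no test. The 3 luminal lists lie beyond the blue line at 37.9% to 43.3%, the basal, mesenchymal, proteolysis, EGFR and inflammatory lists beyond the red line at 44% to 61.1%, and the proliferation list beyond it at 38.5%. The BMP pathway (20.7% and 27.6%) and housekeeping genes (14.3% and 35.7%) lie beyond both lines, and the stroma and blood list is at the red line (20%, 1 of 5).

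HCC1954 was more often than MDA-MB-231 the ER-negative line nearest to the other class. Among the 376 genes higher in ER-positive lines with a gap of at least 1, the higher of the ER-negative lines was HCC1954 for 236 (62.8%), and among the 519 higher in ER-negative lines the lower of them was HCC1954 for 341 (65.7%). On the ER-positive side ZR-75-30 was nearest to the ER-negative lines for 166 (44.1%) and 231 genes (44.5%), T-47D for 131 (34.8%) and 167 (32.2%), and MDA-MB-361 for 79 (21%) and 121 (23.3%). When HCC1954 was left out, 3134 genes were higher in every ER-positive line than in MDA-MB-231 and 4570 were lower, in place of 1551 and 2684. Without MDA-MB-231 the numbers were 2721 and 4187, and leaving out any line raises them because fewer lines have to be ordered.

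The BMP7-treated cells of the same arrays, which are other cultures of the same lines measured in the other channel, gave 1637 and 2713 separated genes. Of the genes separated in vehicle-treated cells, 1394 (89.9%) and 2366 (88.2%) were separated the same way there, and 24 of the 25 and 51 of the 58 called genes were again called by limma. These channels share arrays and lines with the vehicle channels and are no independent sample of either class.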

How the data were processed

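RNA of vehicle-treated (Cy3) and BMP7-treated (Cy5) cells of 5 lines at 6 time points was hybridized to 30 two-colour arrays. Per the file headers, the deposited signal intensities were made by Feature Extraction 9.5.1.1 which subtracted background and balanced the dyes by linear scaling and lowess, so the vehicle intensity also depends on the Cy5 channel. From these, log2 intensities of 41000 probes were computed after control spots and outlier-marked spots had been left out, spots of a probe averaged, the median of each array set to 0 and the arrays of a line averaged. The number of arrays and signal over background limit the precision. Of the probes, 27663 had 1 current gene symbol in RefSeq (GRCh38.p14), and each gene was read from its brightest probe. Probes well above background on at least 4 of 6 arrays in at least 2 lines were tested (27481 probes, 13640 genes) with limma 3.58.1 in R 4.3.3 on the 5 line means, Benjamini-Hochberg adjusted over all of them, with a threshold of 0.05. P-values rest on the spread between lines. The fit was tested on simulated data. Genes named were the 12 called genes per direction with the widest gap, ESR1, PGR and members of the lists on which a result turned. Members and lists were chosen with earlier results of these data known. Alternatives were 75th percentile centring, quantile normalization, normexp, other filters, random blocks, scan batches, early and late times, the BMP7 channel, an intensity trend, all probes of a gene and leaving out lines or arrays. The deposited matrix of log ratios was not used. Figures used Python 3.11.15 and matplotlib 3.10.9. Some members of the lists are counted but not reported here by name.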

Additional observations from a re-analysis of the deposited data

Results flagged for a closer look

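Within a line the vehicle signal of the 6 arrays was examined for single arrays far from the rest, over the genes named in the text and the lines in which the gene was well above background on all 6 arrays. In 34 of 295 such groups the gap of the highest or lowest array to its neighbour took up more of the whole range than Dixon's 95% critical value allows. That value lets about 1 in 20 groups of independent repeats pass. The 6 arrays are time points and the genes share arrays, so the 34 cannot be set against that rate. The share of the range is given in brackets.

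MDA-MB-231 at 6 h, the array least like its own line, stood apart for 13 genes and was the highest in each, namely ANXA1 (0.954), AXL (0.634), CD44 (0.783), CDC20 (0.645), COL13A1 (0.644), F3 (0.626), FOXF2 (0.733), FST (0.691), IL6 (0.667), P3H2 (0.721), SPDEF (0.783), SPRY2 (0.802) and XBP1 (0.777). The HCC1954 array at 1 h stood apart for 9 genes. It was the highest for AGR2 (0.759), AKR1B1 (0.669), BMP7 (0.677) and ID2 (0.783), and the lowest for ABAT (0.786), AXL (0.771), CD44 (0.712), COL13A1 (0.637) and CSF2 (0.672). The HCC1954 array still correlated best with its own line (mean 0.979), and whether its deviations came from the sample was not tested. Without it the difference between classes was -6.20 for CSF2 in place of -5.86, -6.55 for AXL in place of -6.34, 6.44 for AGR2 in place of 6.27, 4.14 for ID2 in place of 3.93 and 4.53 for BMP7 in place of 4.40. MDA-MB-231 at 6 h was left out only together with T-47D at 3 h and 24 h, which gave -5.28 for ANXA1 in place of -5.57 and -4.07 for SPRY2 in place of -4.22.

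The other arrays stood apart for 1 or 2 genes each. In MDA-MB-231 the 24 h array was lowest for TNFAIP3 (0.636). In MDA-MB-361 the 24 h array was lowest for ANXA1 (0.832), the 6 h array lowest for CA12 (0.732), the 12 h array highest for CDH1 (0.704) and the 1 h array highest for TFF3 (0.774). In T-47D the 1 h array was highest for ERBB2 (0.673), the 24 h array lowest for TFF1 (0.772) and the 3 h array highest for TFF3 (0.892). In ZR-75-30 the 6 h array was highest for CDC20 (0.667) and lowest for MYB (0.725), and the 30 min array was highest for HS6ST3 (0.667) and lowest for DCDC2 (0.662).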

How the results depend on the processing

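With normexp background correction (offset 50) 1 gene higher in ER-positive and 20 higher in ER-negative lines were called, in place of 25 and 58, and 211 and 318 had a gap of at least 1. Without the filter on dim probes 6 and 22 were called. Treating the 30 arrays with cell line as a random block (within-line correlation 0.71) raised the calls to 548 and 651, and adding scan batch to that fit gave 560 and 641. In the second scan batch alone, which held 4 lines, limma called 0 and 0 (415 and 745 at an unadjusted p under 0.05), and 902 genes higher in ER-negative lines had a gap of at least 1. That batch held 1 array each of HCC1954 and T-47D, 2 each of MDA-MB-231 and ZR-75-30 and 0 of MDA-MB-361. Leaving out a line gave 0 to 64 calls higher in ER-positive and 0 to 10 higher in ER-negative lines, 496 to 1235 and 670 to 1352 genes with a gap of at least 1, and 2219 to 3134 and 3233 to 4570 separated genes. Fewer lines have to be ordered then, which by itself raises those counts. In the other settings limma called 20 to 28 and 42 to 62 genes. Without MDA-MB-231 at 6 h and T-47D at 3 h and 24 h, a choice made after seeing the data, 20 and 42 were called, and without HCC1954 at 1 h, likewise, 28 and 61.

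Of the genes named in the text, ERBB2, GRB7 and BMP7 changed sign in a setting, and the lines of both classes overlapped for all 3. The difference of ERBB2 was 1.00 and became -0.56 in the second scan batch and ranged from -1.60 without MDA-MB-231 to 3.59 without HCC1954. That of GRB7 was -0.18 and became 0.0073 with 75th percentile centring, 0.054 in the second scan batch, 0.031 over the 3 later times, 0.71 without T-47D and 4.12 without HCC1954, against -4.49 without MDA-MB-231. That of BMP7 was 4.40 and ranged from -0.94 without MDA-MB-231 to 9.74 without HCC1954. Over all settings, 212 differences of named genes lost their call, 86 gained one and 1373 kept their direction and side of the threshold. No paired analysis was possible because the classes hold different cell lines and a number in accession order does not pair them.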
